A study of Schizosaccharomyces pombe with 72 samples.

Results

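Strains 97 and 86 of the fission yeast Schizosaccharomyces pombe were compared through 30 of the 72 RNA-seq libraries of the series, 15 libraries from each strain. The libraries were all those that the labels assign to these strains, with no choice by measured value. Strains 93 and 92, with 15 libraries each, were compared in the same way, and genes that differed in one pair of strains or in both were named. The study sequenced a wild-type strain, the cohesin-loader mutant mis4-G1487D, the TORC1-subunit mutant mip1-R401G and their combination. The labels give each strain by a number that the labels and the methods do not pair with a genotype, so strains are named by number only and no genotype is assigned. Each strain gave 3 libraries, from batches 1 to 3, in each of 5 growth states. Cells cycled in the rich medium YES at 25 °C (V25) or for 1 doubling at 36.5 °C (V36.5), or were starved in the synthetic medium EMM2 lacking nitrogen at 25 °C for 24 hr (T0) and then kept 4 more days at 25 °C (T4D25) or 36.5 °C (T4D36.5). All the strains of the expression experiments were listed as mat1-M-smt0, an allele that blocks mating-type switching, and the T4D25 and T4D36.5 libraries continued the T0 cultures.

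Fission yeast takes up zinc at the cell surface through the transporter Zrt1, and the zinc-responsive repressor Loz1 keeps zrt1 and adh4 transcripts low while zinc is plentiful. Zym1, a metallothionein, binds zinc inside the cell. Genes close to the chromosome ends lie in repressive chromatin, and many encode transporters and enzymes whose transcripts appear in starved or heated cells. Mis4 loads cohesin, the ring that holds sister chromatids together, and Mip1 is a subunit of TORC1, the kinase complex that links growth to nitrogen supply.

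Gene counts per library ranged from 1339415 to 6083309 in strain 97 and from 1457590 to 5854411 in strain 86, with medians of 3937799 and 3877125. Libraries of batch 3 were shallower in all 4 strains, with a median of 2024810.5 counts against 4589355.5 in batch 1 and 4721687 in batch 2. Levels are given as CPM, counts scaled by library total and TMM factor, and a floor of 3 counts corresponded to between 0.493 and 2.24 CPM in strain 97 and 0.512 and 2.06 CPM in strain 86. The mutated genes did not separate the strains at the transcript level. mis4 had a lowest, median and highest level of 71.7, 128 and 165 CPM in strain 97, against 68.6, 132 and 175 CPM in strain 86. mip1 had 151, 185 and 230 CPM in strain 97, against 146, 194 and 212 CPM in strain 86. Neither average difference passed edgeR's quasi-likelihood test (adjusted p = 1 for mis4 and 0.882 for mip1), and point mutations need not change a transcript level, so these values do not check the strain numbers.

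Averaged over the 5 states, 65 of 6336 genes tested differed between strains 97 and 86 (1.03%), 30 higher (0.473%) and 35 lower (0.552%) in strain 97. Such genes, with an adjusted p below 0.05 in edgeR's quasi-likelihood test, are termed called. The largest fall was in zrt1, the zinc uptake gene, and the largest fitted rise in ght7, a hexose transporter gene near a chromosome end. The rank of ght7 held for the fitted value: with 1 value per strain and batch it had 0.98, below 1.45 for SPBPB10D8.02c, and its call was lost in 8 of 20 alternative settings. The median size of a called difference, regardless of sign, was 0.46 on the log2 scale, and 11 called genes differed at least 2-fold. Over all genes tested the median of the signed differences was 0.0015, which is not a typical size. Of the called genes, 41 had the same direction in all 5 states, 22 in 4 and 2 in 3. The count rested on the replicates. It was 16 without batch 1, 19 without batch 2 and 49 without batch 3, and 10 of the 65 genes were called in each of these 3 fits as well as with every library: zrt1, zip2, SPNCRNA.1622, adh4, zym1, dak2, SPBPB10D8.02c, SPNCRNA.1431, rct1-antisense-1 and mug126-antisense-1. Each of the other 55 genes lost its call without at least 1 batch. With 1 value per strain and batch, which does not treat libraries of 1 starved culture as separate samples, 43 of the 65 genes passed and all 65 kept their direction. Without the batch term the count was 38, and with V25, V36.5, T0, T4D25 or T4D36.5 left out it was 64, 53, 39, 34 and 29.

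The gene with the strongest difference was zrt1 (SPBC16D10.06, chromosome II, 3607199 to 3609330), the zinc uptake transporter, which was lower in strain 97 in every state. In V25 its levels were 620, 702 and 641 CPM in strain 97, against 2235, 2094 and 2053 CPM in strain 86. In T0 they were 88.0, 86.7 and 112 CPM in strain 97, against 1010, 1247 and 824 CPM in strain 86. The strains did not overlap in any of the 5 states. The average log2 fold change was -2.44 (standard error 0.15, edgeR adjusted p = 6.13e-18), and zrt1 was the single gene of the 6336 that was called in each state by itself, with log2 fold changes of -1.70, -2.81, -3.44, -1.48 and -2.80 in V25, V36.5, T0, T4D25 and T4D36.5. In T4D36.5, strain 86 had 227 and 222 CPM in batches 1 and 2 and 43.8 CPM in batch 3, against 26.7, 20.5 and 26.5 CPM in strain 97. In bulk cultures, a lower level in every cell and a smaller share of cells with the transcript cannot be told apart.

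SPNCRNA.1622, a non-coding RNA that starts beside zrt1 on the other strand (chromosome II, 3605352 to 3607271) and overlaps its first bases, was lower in strain 97 as well, by itself in V36.5 and T0. In V36.5 it had 3.35, 0.692 and 3.81 CPM in strain 97, against 38.5, 19.7 and 28.3 CPM in strain 86. In T4D25 the levels were 7.41, 7.98 and 5.63 CPM in strain 97, against 4.96, 5.03 and 7.10 CPM in strain 86, and there the strains overlapped. Its average log2 fold change was -1.74 (standard error 0.18, edgeR adjusted p = 1.1e-09), and the difference varied over the states (adjusted p = 0.000139). Reads of zrt1 over the shared bases could have been counted with SPNCRNA.1622, so the level of this RNA is uncertain. zip2 (SPCC126.09, chromosome III, 2131758 to 2134209), annotated as a zinc transporter, was also lower in strain 97 with no overlap in any state. The gap in zip2 was small in cycling cells and wider in starved ones. In V36.5 it had 61.5, 53.3 and 66.6 CPM in strain 97, against 76.7, 75.5 and 78.8 CPM in strain 86. In T4D36.5 it had 62.8, 72.3 and 78.1 CPM in strain 97, against 120, 120 and 123 CPM in strain 86. The average log2 fold change of zip2 was -0.69 (standard error 0.06, edgeR adjusted p = 2.72e-12), and its difference over the states did not pass the test (adjusted p = 0.0997).

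adh4 (SPAC5H10.06c, chromosome I, 156430 to 158307), an alcohol dehydrogenase gene under Loz1 repression, was called in V25 and V36.5 and in no starved state. In V25 it had 193, 168 and 158 CPM in strain 97, against 1813, 908 and 1726 CPM in strain 86. In V36.5 it had 86.0, 77.5 and 79.3 CPM in strain 97, against 1840, 92.4 and 2609 CPM in strain 86, so that the batch 2 library of strain 86 lay near strain 97. The log2 fold changes were -3.07 in V25 and -4.17 in V36.5 (edgeR adjusted p = 4.93e-06 and 4.22e-09), against 0.55, 0.09 and -0.05 in T0, T4D25 and T4D36.5, none of which was called. In T0 the strains were nevertheless apart in the other direction, with 160, 103 and 98.3 CPM in strain 97, against 96.8, 81.2 and 67.2 CPM in strain 86. The variation over the states passed its own test (adjusted p = 3.01e-08), the smallest p of that test among all genes. adh1 (SPCC13B11.01, chromosome III, 1589427 to 1592889), the main alcohol dehydrogenase, went the other way. In V25 it had 3320, 2292 and 3570 CPM in strain 97, against 947, 1205 and 725 CPM in strain 86, with no overlap. In V36.5 it had 1867, 2129 and 2758 CPM in strain 97, against 814, 2273 and 352 CPM in strain 86, and the batch 2 library of strain 86 was again the one that resembled strain 97. The average log2 fold change of adh1 was 0.61 (standard error 0.14, edgeR adjusted p = 0.0196). adh1 was picked for description after its values were seen.

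zym1 (SPAC22H10.13, chromosome I, 2381690 to 2382200), the metallothionein gene, was higher in strain 97, with an average log2 fold change of 0.86 (standard error 0.13, edgeR adjusted p = 2.73e-05). In T0 it had 1316, 1020 and 535 CPM in strain 97, against 493, 525 and 317 CPM in strain 86. In T4D36.5 it had 1201, 1405 and 1354 CPM in strain 97, against 577, 909 and 960 CPM in strain 86. The strains were apart in each of the 5 states, by a small margin in T0 and also in V25, where strain 97 had 8.77, 9.21 and 25.3 CPM and strain 86 had 5.62, 8.38 and 7.43 CPM. zrt1, zip2 and zym1 were the 3 genes of the 6336 whose strain 97 and strain 86 libraries did not overlap in any state.

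**Figure D1:**
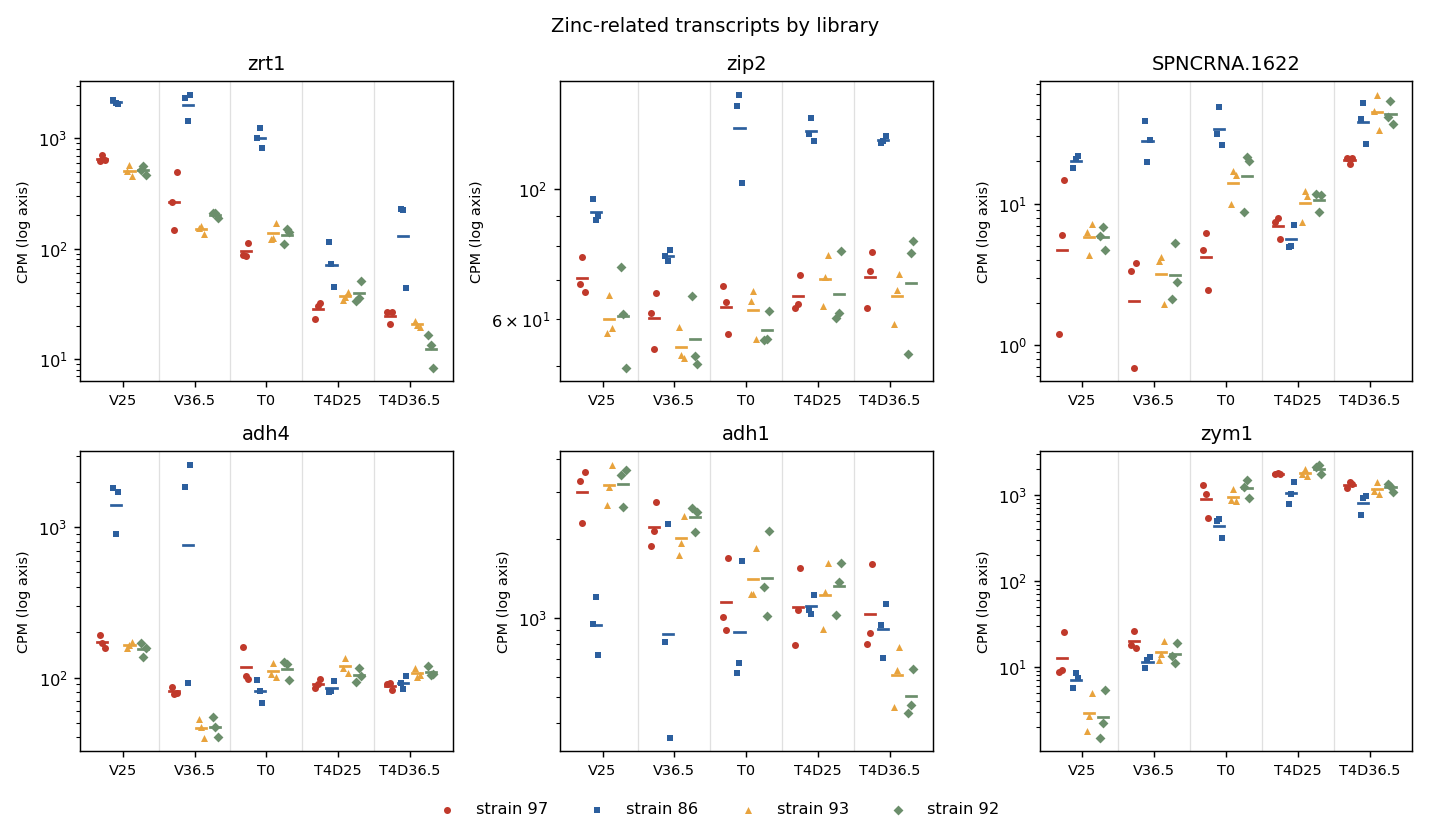
Level of 6 transcripts in every library (CPM, log axis) of strains 97, 86, 93 and 92 in the 5 growth states, with points for the 3 libraries of a group and a short line at their geometric mean. Strain 86 lay above the other 3 strains for zrt1 in each state but T4D25, where its lowest library had 44.5 CPM, and for adh4 in V25 and V36.5, where its lowest libraries had 908 and 92.4 CPM.

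The list of zinc genes held 8 genes, of which 3 were called (37.5%, beside 1.03% of all genes): zrt1 and adh4 were lower and zym1 higher in strain 97. The median of the 8 average log2 fold changes was -0.04. The other 5 were not called. fet4, which encodes a low-affinity metal transporter, had an average log2 fold change of -0.25 (edgeR adjusted p = 0.353), and loz1, the repressor gene, had 0.08 (adjusted p = 0.801). cis4 and zhf1, transporters of internal membranes, had -0.07 and -0.005, and the bZIP factor gene zip1 had 0.01. zip2 was not on the list. The list was drawn up with earlier results of these data known, so its share is a description.

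Strains 93 and 92 were close to strain 97, not to strain 86, for zrt1 and zip2. Over 15 libraries zrt1 had a lowest, median and highest level of 20.5, 88.0 and 702 CPM in strain 97, against 43.8, 1010 and 2493 CPM in strain 86. Strain 93 had 19.5, 126 and 574 CPM, against 8.32, 143 and 559 CPM in strain 92. zip2 was at no more than 78.1, 77.2 and 81.5 CPM in any library of strains 97, 93 and 92, where strain 86 had a median of 119.5 CPM. Between strains 93 and 92 the average log2 fold changes were 0.03 for zrt1, 0.01 for zip2, -0.03 for SPNCRNA.1622, 0.04 for adh4 and -0.10 for zym1, and none was called. The difference between the 2 strain pairs passed for each of these 5 genes (edgeR adjusted p = 2.39e-12, 7.83e-08, 1.33e-05, 0.000647 and 0.0104 in the same order), and did not pass for adh1 (adjusted p = 0.188).

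A group of 3 related gene models that encode Vel1p domain proteins showed a still wider gap in cycling cells, and was picked after its values were seen. In budding yeast the VEL1 gene is known for its induction in zinc-depleted medium. SPAC977.05c, SPBC1348.06c and SPBPB2B2.15 lie 35767, 15980 and 35915 bases from an end of chromosome I or II. In V25 SPAC977.05c had 0.399, 0.498 and 1.01 CPM in strain 97, against 131, 64.3 and 140 CPM in strain 86. In V36.5 it was at 0 in the 3 strain 97 libraries, against 48.3, 2.27 and 107 CPM in strain 86, where batch 2 was once more the low library. Summed over the V25 libraries, SPAC977.05c had 5 counts in strain 97 and 940 in strain 86, a fold of 183 (95% exact interval 78 to 564, counting error only), and SPBC1348.06c had 1 and 385 counts, a fold of 374 (66.7 to 14800). SPBPB2B2.15 had 0 and 242 counts, at least 78.3-fold lower in strain 97 with a floor of 3 counts over the group.

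All 3 genes were called in V25 and V36.5 (edgeR adjusted p = 1.98e-05, 5.73e-05 and 0.00715 in V25 and 0.00015, 0.000259 and 0.0229 in V36.5, in the order above). In V36.5 SPBC1348.06c had 22.8, 1.26 and 79.4 CPM in strain 86, with batch 2 again low. SPBPB2B2.15 had 18.4, 0 and 52.3 CPM there, against 0 in each strain 97 library, so the strains overlapped. None of the 3 genes was called in the average, where several groups had no count and the fit gave no usable standard error, as for 59 of the 6336 genes. The alternatives differed. With 1 value per strain and batch, tested with limma, the 3 genes passed (adjusted p = 3.14e-05, 0.000392 and 0.00218), and they did not pass in edgeR's likelihood ratio test (adjusted p = 1 for each) or in DESeq2 (adjusted p = 0.898, 0.922 and 0.917). In strains 93 and 92 no library had more than 0.468 CPM of any of them. Reads may be shared between such related copies, so the level of each copy is uncertain.

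Genes near the chromosome ends were the other large group. Of 80 protein-coding genes tested within 100 kb of an end of chromosome I or II, 12 were called (15%), 9 higher and 3 lower in strain 97, beside 32 of 4014 coding genes elsewhere on the 2 chromosomes (0.797%). Between strains 93 and 92, 7 of the same 80 genes were called higher and 2 lower, beside 0 higher and 2 lower of the 4014. The median average log2 fold change between strains 97 and 86 was 0.18 in the first group and -0.006 in the second. Without distance limits, 2 runs of neighbouring called genes were found by joining called genes less than 10 kb apart, a rule set after the values were seen. On chromosome I, from 106893 to 140365, 8 genes were higher in strain 97 and all 18 genes tested in that stretch had a positive average. On chromosome II, from 58136 to 71310, eno102, cmt2 and aes1 were higher, and all 10 genes tested there had a positive average. Called genes of 1 direction define each run, so their positive sign was fixed by the rule. Some other genes of the first run had small averages, such as SPAC11D3.15-antisense-1 (0.0066) and SPAC11D3.04c (0.062). Over all genes tested, 0.473% were called higher in strain 97, and the median average was 0.0015.

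**Figure D2:**
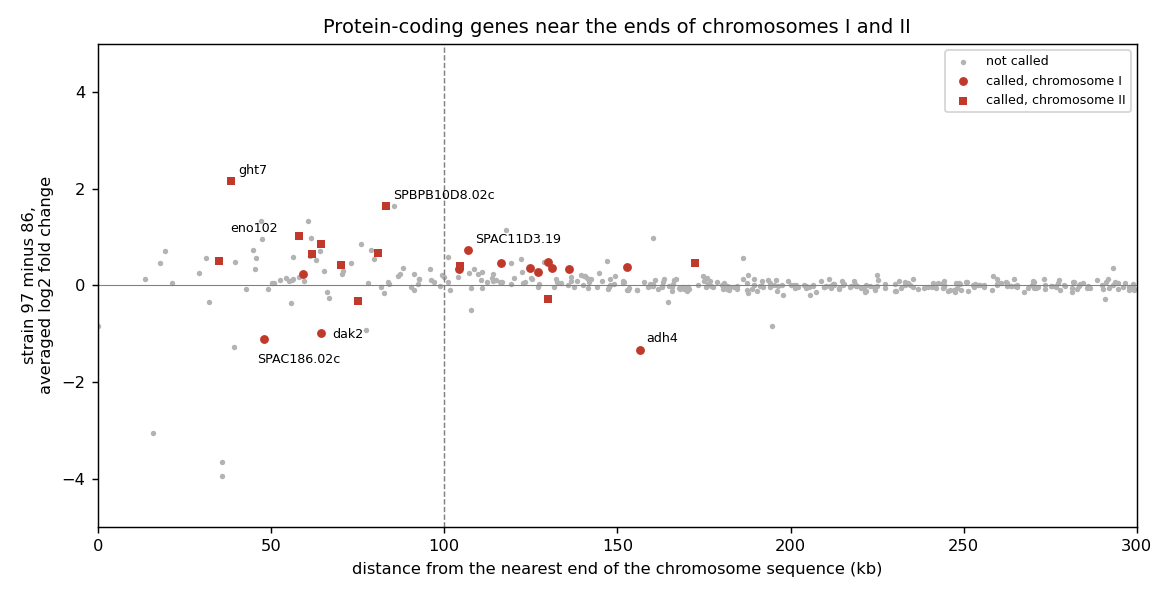
Average log2 fold change of strain 97 minus strain 86 (vertical axis) for protein-coding genes within 300 kb of an end of chromosome I or II, by distance from the nearest end in kb. Red points are called genes, grey points the others, and the dashed line stands at 100 kb. Inside that line 12 of 80 genes were called, ght7 (2.16) and SPBPB10D8.02c (1.65) highest, and the 3 grey points below -3 are the Vel1p domain genes.

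The chromosome I run held SPAC11D3.19, SPNCRNA.608, SPAC11D3.06, SPAC11D3.10, SPAC11D3.11c, hsp3104, SPAC11D3.14c and SPAC11D3.15. hsp3104 encodes a glyoxalase III of the ThiJ family, SPAC11D3.06 a transporter of the MatE family, and SPAC11D3.14c and SPAC11D3.15 are annotated as oxoprolinases, enzymes of glutathione turnover. hsp3104 had 34.95, 24.65 and 26.4 CPM in T4D25 in strain 97, against 14.65, 14.2 and 14.2 CPM in strain 86, with no overlap, and its average log2 fold change was 0.48 (standard error 0.09, edgeR adjusted p = 0.0013). SPAC11D3.19, an uncharacterized gene, averaged 0.73 (standard error 0.16, adjusted p = 0.00918). The other 6 called members averaged 0.27 for SPAC11D3.11c to 0.46 for SPAC11D3.06. These differences were modest, and the strains overlapped in at least 1 state for every member. Several members overlap a neighbour on the opposite strand, and whether the counting used strand is not given in the sources used here.

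In the chromosome II run, eno102, an enolase gene, differed mainly in T4D25, where it had 39.3, 23.1 and 28.1 CPM in strain 97, against 9.48, 5.22 and 5.68 CPM in strain 86. Its average log2 fold change was 1.03 (standard error 0.21, edgeR adjusted p = 0.00278), and it varied over the states (adjusted p = 0.016). cmt2, a catechol O-methyltransferase gene, averaged 0.87 (standard error 0.16, adjusted p = 0.00107). In V36.5 it had 12.7, 8.53 and 11.4 CPM in strain 97, against 2.65, 7.07 and 1.85 CPM in strain 86, and in T4D36.5 it had 105.5, 89.0 and 84.9 CPM in strain 97, against 60.4, 81.5 and 124 CPM in strain 86. The strains were apart in V36.5 and overlapped in T4D36.5. SPBPB21E7.09, an L-asparaginase gene just beyond this run, was lower in strain 97 (average -0.33, adjusted p = 0.0102), with 111, 124 and 148 CPM in T4D25 in strain 97, against 278, 272 and 241 CPM in strain 86.

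The count of called genes near chromosome ends was highest after 4 days without nitrogen at 36.5 °C. In T4D36.5, 15 of 116 genes tested within 100 kb of those ends were called (12.9%, beside 0.679% of all genes), 14 of them higher in strain 97 (0.379% of all genes were called and higher), against 3, 7, 2 and 6 of the 116 in V25, V36.5, T0 and T4D25 (beside 0.11%, 0.253%, 0.663% and 0.347% of all genes). Between strains 93 and 92, 4, 6, 7, 6 and 10 of the 116 were called in V25, V36.5, T0, T4D25 and T4D36.5. SPBPB10D8.02c (chromosome II, 83229 to 85631), an arylsulfatase gene, had 58.5, 55.9 and 53.7 CPM in T4D36.5 in strain 97, against 1.85, 3.56 and 2.46 CPM in strain 86. Its log2 fold change there was 4.40 (edgeR adjusted p = 3.74e-14), its average was 1.65 (standard error 0.24, adjusted p = 1.18e-05), and it varied over the states (adjusted p = 1.75e-06). Its neighbour SPBPB10D8.01, a cysteine transporter gene that overlaps it, had 88.5, 81.5 and 86.3 CPM in strain 97, against 36.3, 33.6 and 30.5 CPM in strain 86 (average log2 fold change 0.66, standard error 0.12, adjusted p = 0.000334). In both genes the strain 97 libraries lay close together and far above those of strain 86.

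ght7 (chromosome II, 38514 to 40277), a hexose transporter gene, had 60.9, 59.25 and 59.1 CPM in T4D36.5 in strain 97, against 7.39, 8.29 and 18.7 CPM in strain 86, and no more than 1.99 CPM in the other states in either strain. Its log2 fold changes were 0.89, 2.54, 3.33, 1.499 and 2.51 in V25, V36.5, T0, T4D25 and T4D36.5, of which the last alone was called (edgeR adjusted p = 2.41e-07). The fitted average of 2.16 (standard error 0.52, adjusted p = 0.0213) weights the 5 states equally, and so includes 4 states near the floor of 3 counts. With 1 value per strain and batch, the average was 0.98 (limma adjusted p = 0.00846). SPBPB8B6.02c, a urea transporter gene, had 145, 145.5 and 125 CPM in T4D36.5 in strain 97, against 25.3, 14.5 and 27.6 CPM in strain 86. The transcription factor gene grt1 had 111, 137 and 143 CPM there in strain 97, against 55.0, 39.3 and 42.3 CPM in strain 86, and fah1, an acetamidase gene that overlaps it, had 29.4, 37.9 and 39.4 CPM in strain 97, against 4.72, 8.06 and 10.3 CPM in strain 86. The last 3 genes were called in T4D36.5 (adjusted p = 7.48e-11, 4.51e-06 and 1.08e-05) and not in the average, and they were picked after their values were seen. For fah1 the averaged fit gave no usable standard error, and with 1 value per strain and batch fah1 passed (limma adjusted p = 0.0317). grt1 and fah1 lie on opposite strands, and reads of one could have been counted with the other where they overlap.

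Near the other end of chromosome II, SPBPB2B2.06c (4469018 to 4471207), annotated as a phosphoprotein phosphatase, differed in heated cycling cells. In V36.5 it had 196, 124 and 79.3 CPM in strain 97, against 46.1, 56.8 and 14.2 CPM in strain 86. Strain 93 had 34.96, 22.8 and 24.5 CPM, against 144, 74.1 and 61.9 CPM in strain 92. Neither pair overlapped there and their directions were opposite, with log2 fold changes of 1.69 in the first pair and -1.76 in the second (edgeR adjusted p = 3.11e-07 and 2.66e-07). The average was 0.66 in the first pair (standard error 0.15, adjusted p = 0.0124), and the difference between the pairs passed (adjusted p = 0.00122).

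The remaining called genes with the largest falls in strain 97 had mixed roles. dak2 (chromosome I, 64559 to 66980), a dihydroxyacetone kinase gene of glycerol use, had 69.2, 64.1 and 66.8 CPM in T0 in strain 97, against 328, 306 and 156 CPM in strain 86. It averaged -0.99 (standard error 0.12, edgeR adjusted p = 3.57e-07) and varied over the states (adjusted p = 0.032). SPAC977.17, of the family of water and glycerol channels, overlaps dak2 on the opposite strand and was called at T0 as well (log2 fold change -0.80, adjusted p = 0.0106). Its average of -0.13 was not called, and it was picked after its values were seen. Reads of dak2 could have been counted with SPAC977.17, so its level is uncertain. SPAC17G6.03, annotated as a phosphoprotein phosphatase, averaged -0.44 (standard error 0.06, adjusted p = 2.64e-06), mmt1, a mitochondrial iron transporter gene, averaged -0.43 (adjusted p = 0.0346), and the uncharacterized SPAC9E9.02 averaged -0.46 (adjusted p = 0.0213).

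Non-coding RNAs gave 14 of the 65 calls, from 1116 tested (1.25%, near the 1.03% of all genes), 5 higher and 9 lower in strain 97. SPNCRNA.1431 averaged -1.35 (standard error 0.20, edgeR adjusted p = 1.18e-05), and in T4D36.5 it had 3.21, 2.151 and 2.04 CPM in strain 97, against 10.9, 14.5 and 8.37 CPM in strain 86. mug126-antisense-1, which lies opposite the meiotic gene mug126, fell in T4D25, with 0.950, 0.355 and 1.73 CPM in strain 97, against 12.5, 10.2 and 8.05 CPM in strain 86. It overlapped between the strains in cycling cells, and its variation over the states passed the test (adjusted p = 0.000139). rct1-antisense-1 rose, with 24.1, 35.9 and 22.9 CPM in T0 in strain 97, against 4.94, 6.61 and 5.30 CPM in strain 86 (average 0.97, standard error 0.14, adjusted p = 1.44e-05). SPNCRNA.841 and SPNCRNA.1606 averaged -0.63 and -0.50 (adjusted p = 0.00363 and 0.0196). Antisense levels are uncertain where reads of the overlapping gene could have been counted with them.

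**Figure D3:**
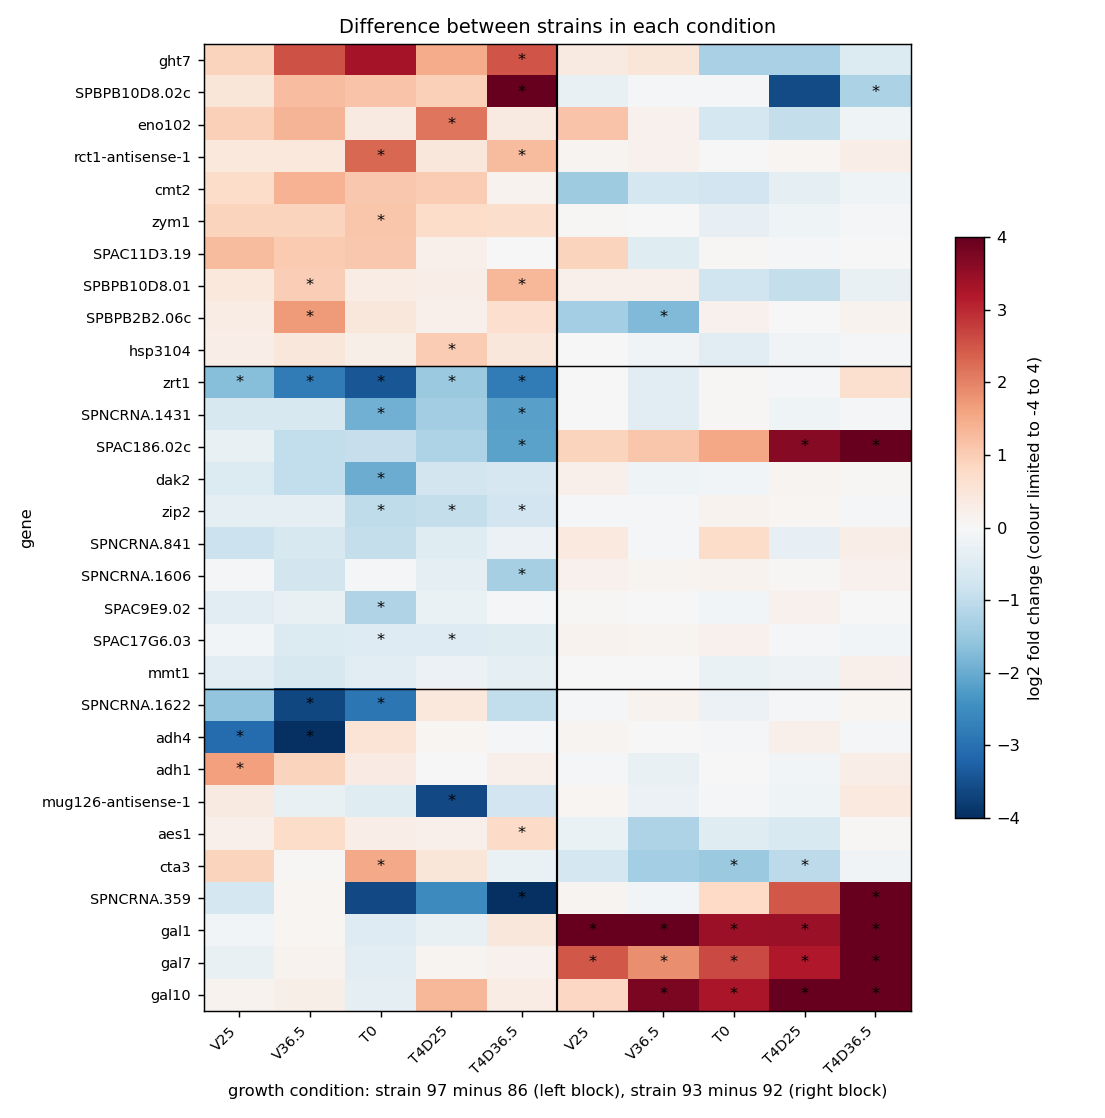
Log2 fold change in each growth state for 30 genes, strain 97 minus strain 86 in the left block and strain 93 minus strain 92 in the right block. Stars mark an edgeR adjusted p below 0.05 in that state. zrt1 was called in all 5 states on the left and in none on the right, and gal1 the reverse.

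State by state, the number of genes called between strains 97 and 86 was 7 in V25, 16 in V36.5, 42 in T0, 22 in T4D25 and 43 in T4D36.5. Without batch 1, 2 or 3 the counts were 2, 5 and 4 in V25, 4, 14 and 6 in V36.5, 18, 9 and 28 in T0, 6, 4 and 24 in T4D25, and 25, 12 and 35 in T4D36.5. Together 113 genes were called in at least 1 state, 100 of them in 1 state alone, 11 in 2, zip2 in 3 and zrt1 in 5, and 42 of the 113 were also called in the average. Another 23 genes were called in the average and in no single state. A test of whether the difference varied over the states called 32 genes (0.505%), or 6, 2 and 18 without batch 1, 2 or 3. Beside the genes above, the T0 calls included put1, the proline dehydrogenase gene, and dip5, an amino acid transporter gene, both higher in strain 97 (log2 fold change 0.53 and 1.38, edgeR adjusted p = 0.0106 and 0.0132), and the hexose transporter gene ght4 and the gluconeogenic gene fbp1, both lower (-1.18 and -0.88, adjusted p = 0.00318 and 0.0419). hsp3101, a glyoxalase III gene, was higher in strain 97 in V36.5 and lower in T0 (log2 fold change 1.29 and -0.87, adjusted p = 0.0452 and 0.0359), and its variation over the states passed the test (adjusted p = 0.0125). gdh2, the NAD-dependent glutamate dehydrogenase gene, was higher in V25 (0.62, adjusted p = 0.00443) and in the average (0.28, standard error 0.05, adjusted p = 0.00103). put1, dip5, ght4, fbp1 and hsp3101 were picked after their values were seen.

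The second pair gave fewer calls with every library in the fit. Averaged over the states, 14 of 6336 genes were called between strains 93 and 92 (0.221%), 9 higher (0.142%) and 5 lower (0.0789%) in strain 93. The called differences were larger, with a median size of 2.08 on the log2 scale against 0.46 in the first pair. At least 2-fold differences were called for 9 genes, against 11 in the first pair. Leaving out batch 2 gave 8 genes, and batches 1 and 3 gave 20 and 12. Without batch 1 the first pair had fewer calls than the second. State by state the second pair had 4, 9, 13, 7 and 12 calls in V25, V36.5, T0, T4D25 and T4D36.5 (0.0631%, 0.142%, 0.205%, 0.11% and 0.189%). The lists of the 2 pairs shared 4 genes, 6.15% of the first list and 28.6% of the second, and each of the 4 had opposite directions. The other 61 genes of the first list were not called in the second pair, and for 31 of them the difference between the pairs passed. The remaining 10 genes of the second list were not called in the first pair, and 6 of them passed that test. The difference between the pairs was called for 50 genes in all (0.789%), 9 of which were called in neither pair, and for 18, 19 and 32 genes without batch 1, 2 or 3. The number shared by the 2 lists was 0, 0 and 3 without batch 1, 2 or 3. Among the 65 genes called between strains 97 and 86, 17 had the same sign between strains 93 and 92 (26.2%), beside 51.8% of all genes tested.

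**Figure D4:**
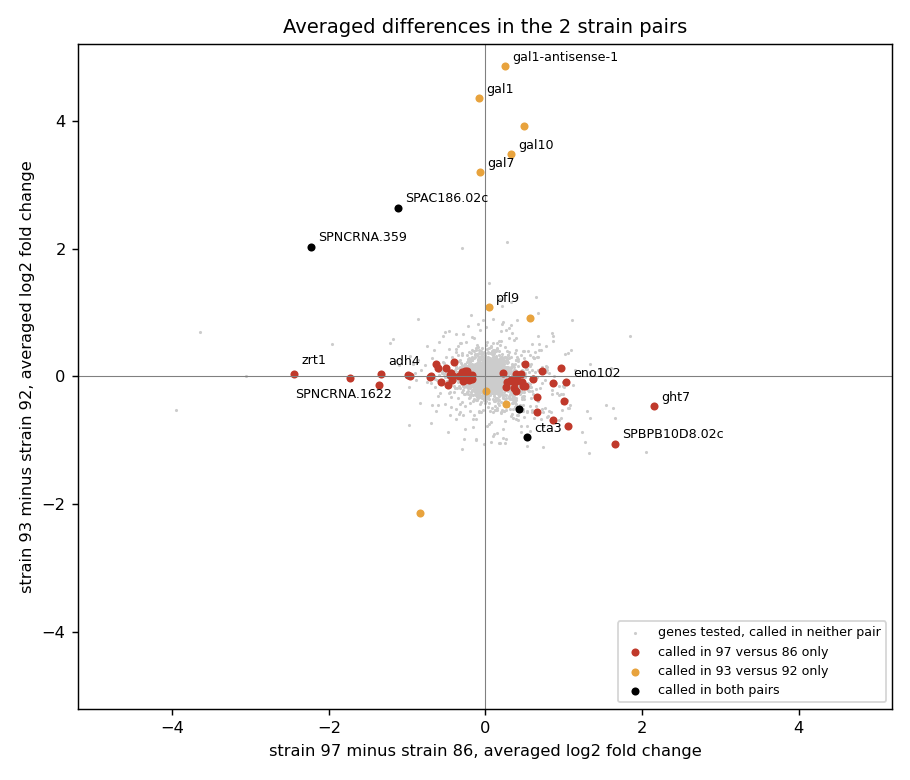
Average log2 fold change of strain 97 minus strain 86 (horizontal axis) and of strain 93 minus strain 92 (vertical axis) for the 6336 genes tested. Red points were called in the first pair only (61 genes), yellow points in the second only (10), black points in both (4), and the black points lie in the 2 quadrants of opposite sign.

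cta3, a calcium-transporting ATPase gene, was 1 of the 4 shared genes. In T0 it had 709, 780 and 508 CPM in strain 97, against 185.6, 298 and 228 CPM in strain 86. Strain 93 had 220, 326 and 310 CPM, against 633, 1026 and 753 CPM in strain 92. At T0, strains 97 and 92 were thus high and strains 86 and 93 low, with no overlap. The average log2 fold changes were 0.53 between strains 97 and 86 (standard error 0.13, edgeR adjusted p = 0.0261) and -0.95 between strains 93 and 92 (standard error 0.13, adjusted p = 1.57e-06). Also at T0, the kinase gene ppk31 and ecl2, a small protein gene linked to lifespan in fission yeast, had positive log2 fold changes in the first pair (1.27 and 1.23, adjusted p = 0.000131 and 0.000826) and negative ones in the second (-1.40 and -0.96). For ecl2, strains 93 and 92 overlapped there, with 140, 196 and 299 CPM in strain 93, against 182, 523 and 551 CPM in strain 92. ppk31 and ecl2 were picked after their values were seen.

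SPAC186.02c (chromosome I, 5529851 to 5531144), a hydroxyacid dehydrogenase gene, was low in strain 97 and high in strain 93. In T4D36.5 it had 5.08, 4.89 and 6.79 CPM in strain 97, against 15.4, 22.5 and 35.4 CPM in strain 86. Strain 93 had 161, 125 and 87.1 CPM, against 1.40, 2.61 and 1.66 CPM in strain 92. The 4 strains did not overlap there, in the order 93, 86, 97 and 92, and the average log2 fold changes were -1.11 in the first pair and 2.64 in the second (standard errors 0.28 and 0.29, edgeR adjusted p = 0.0297 and 5.3e-09). These averages include states near the floor of 3 counts, as the median levels were 1.01 CPM in strain 97 and 1.89 CPM in strain 86. The call in the first pair was lost in 7 of 20 alternative settings, and the call in the second pair in none. SPNCRNA.359, a centromeric non-coding RNA, had 0.267, 0.196 and 0 CPM in T4D36.5 in strain 97, against 2.67, 5.69 and 5.91 CPM in strain 86. Strain 93 had 4.79, 3.25 and 3.25 CPM, and strain 92 was at 0 in its 3 libraries. Its fitted fold changes rest on groups at or near 0 counts and are not bounds. aes1, of the phenazine biosynthesis family, averaged 0.43 in the first pair and -0.51 in the second (adjusted p = 0.00278 and 0.00156), and in T4D36.5 it had 641, 669 and 649 CPM in strain 97, against 285, 415 and 460 CPM in strain 86.

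**Figure D5:**
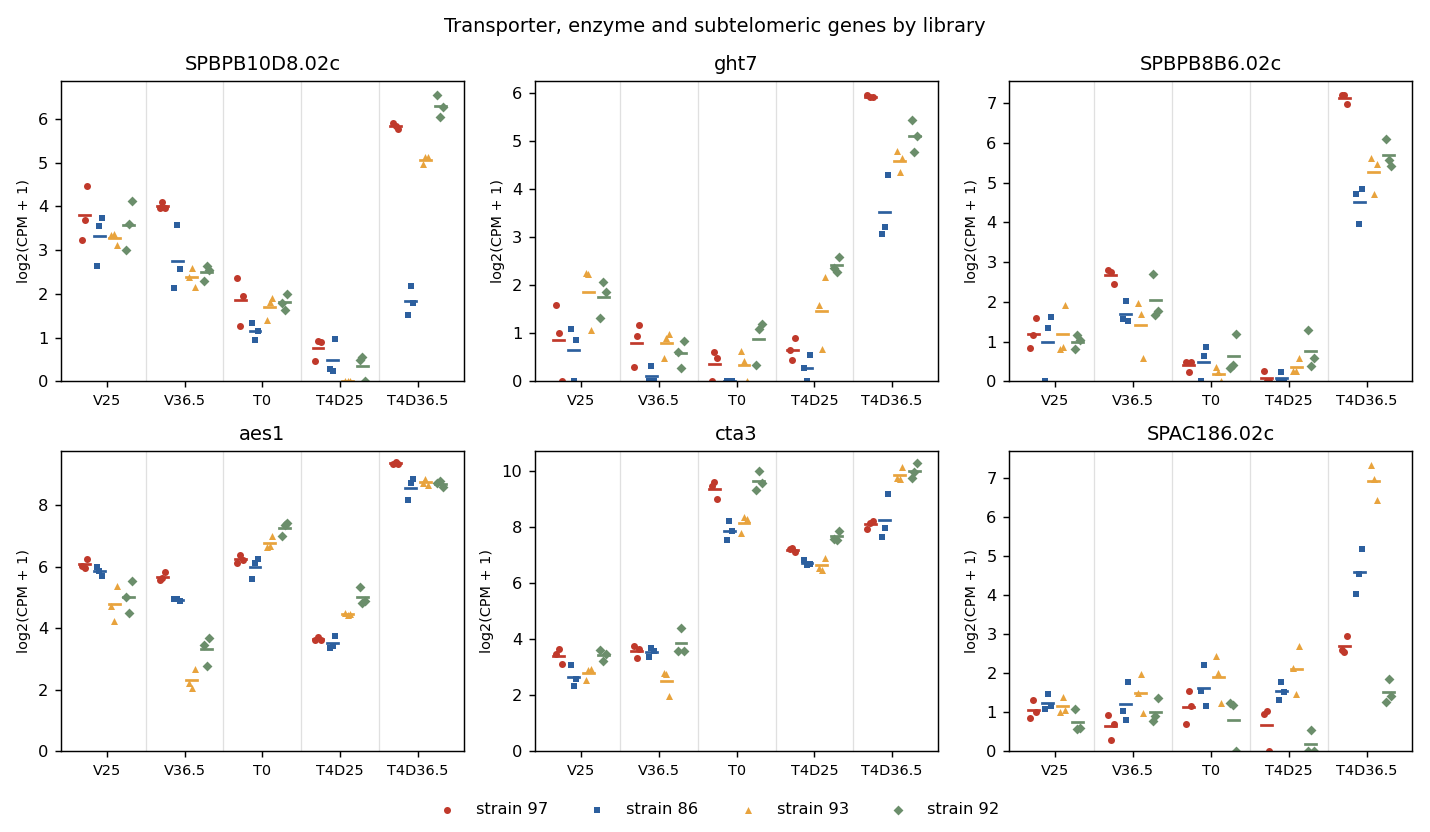
Level of 6 genes in every library, as log2(CPM + 1), of strains 97, 86, 93 and 92 in the 5 growth states, with points for the 3 libraries and a bar at their mean. In T4D36.5 the strain 86 libraries lay lowest for SPBPB10D8.02c and ght7, and the 4 strains separated for SPAC186.02c.

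The genes called in the second pair alone were led by the galactose genes. gal1 (galactokinase, chromosome II, 4488322 to 4490271), gal7 (galactose-1-phosphate uridylyltransferase), gal10 (the epimerase) and gal1-antisense-1, all 42628 to 49100 bases from the chromosome end, were higher in strain 93. gal1 had a lowest, median and highest level of 3.98, 26.8 and 93.4 CPM in strain 93, against 0.245, 0.961 and 6.39 CPM in strain 92. Strains 97 and 86 resembled strain 93, with medians of 34.3 and 37.4 CPM and overlapping ranges. The average log2 fold changes between strains 93 and 92 were 4.35 for gal1, 3.20 for gal7, 3.48 for gal10 and 4.85 for gal1-antisense-1 (standard errors 0.20, 0.16, 0.31 and 0.28, edgeR adjusted p = 9.35e-23, 4.96e-22, 9.88e-12 and 9.21e-19), and in the first pair they were -0.08, -0.07, 0.33 and 0.25, none called. The gal1 range of strain 92 lay below the medians of the other 3 strains.

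Other lists held few differences between strains 97 and 86, and their counts are to be read beside the 1.03% called over all genes. Of the 21 genes of the TOR complexes and their regulators tested, toc1, which encodes a Tor2-interacting protein, was called (average -0.21, standard error 0.05, edgeR adjusted p = 0.0179). gdh2 was the 1 called gene of 13 in nitrogen assimilation, ght7 of 13 in hexose uptake and use, and adn2, a transcription factor gene of cell adhesion, of 12 in flocculation (average -0.28, adjusted p = 0.0218). No gene was called in the 10 other lists, which covered cohesin, nitrogen transport, pheromone response, iron, phosphate, thiamine, stress, heterochromatin, histones and genes used as strain markers and held 150 genes tested. Among these 150, 14 had an unadjusted p below 0.05 in edgeR's test (9.33%, beside 8.996% of all genes), and DESeq2 called cat1, mei2 and frp1. With 1 value per strain and batch, none was called.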

How the data were processed

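RNA was measured in 72 libraries, of which 60 (strains 97, 86, 93 and 92 in 5 growth states) entered the fits and the 12 G1-arrest libraries did not. The authors depleted ribosomal RNA, prepared stranded libraries, sequenced paired reads of 58 bases with demultiplexing by bcl2fastq, aligned them with STAR 2.7.10a to ASM294v2 and counted them in exons with featureCounts 1.5.1. They deposited raw counts for 7014 genes and 92 spike-in RNAs, the latter left out here. Whether the counting used strand is not given in the sources used here. Inside single-exon genes of the other strand with at least 10000 counts lay 193 genes, of which 186 had counts. The median ratio of their count density to that of the surrounding gene was 0.187, and 82 were under 10% of it. Gene names were the symbols of the deposited table, or its gene identifiers where it gave no symbol. Gene types and products came from RefSeq by locus tag (6846 matched). Coordinates are those of the deposited table.

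Counts were filtered with filterByExpr (6336 genes), given TMM factors and modelled in edgeR (version 4.0.16, R 4.3.3) with a mean for each strain and growth state and the replicate number as block. Quasi-likelihood F tests with Benjamini-Hochberg adjustment at 0.05 compared strains 97 and 86, strains 93 and 92, and the difference of the 2 pairs, averaged over the states and in each state. Standard errors are the size of a log2 change over the square root of F. The labels call the replicate number a batch, which is where the pairing comes from. Deviations from group means correlated at 0.246 on average between libraries of the same number and at -0.121 between others. Such deviations cancel within each group, so the second value largely follows from the first. The lowest of 15 correlations between same-numbered libraries of strains 97 and 86 was 0.0808. The labels do not tie the 3 numbers to separate cultures beyond calling them biological replicates, and libraries of 1 starved culture were taken as separate samples, so a test on 1 value per strain and replicate number (limma 3.58.1, 12 values) was an alternative. So were fits with no block, a block within each state, fewer libraries, other filters and scalings, the likelihood ratio test, and DESeq2 1.42.0. The procedure was also run on simulated data, drawn as independent libraries with the fitted dispersions. That run cannot check the use of several libraries from 1 starved culture. Intervals and floors cover counting error only.

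Genes were named by rule: the 10 largest rises and 10 largest falls among called genes whose mean log2 CPM reached 1 and that kept 1 direction in all 5 states, up to 8 genes called in both pairs, 8 in the first pair alone, 4 in the second alone, 4 that varied most over the states, called list members, and mis4 and mip1. The genes named for 1 pair alone were those with the smallest p in the difference of the pairs. The members and lists were chosen with earlier results of these data known. Figures used matplotlib 3.10.9.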

Additional observations from a re-analysis of the deposited data

Results flagged for a closer look

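Of the 6336 genes tested, 50 had a difference between strains 97 and 86 that differed from that between strains 93 and 92, and 32 had a difference between strains 97 and 86 that varied over the 5 growth states. Among the 36 genes named by rule, 26 passed the test of the first kind, and the values below are the average log2 fold change of strain 97 over 86 minus that of strain 93 over 92, by edgeR's quasi-likelihood test.

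For zinc-related genes, this value was -2.48 for zrt1, -0.70 for zip2, -1.37 for adh4, an alcohol dehydrogenase gene, and 0.97 for zym1. It was -1.71 for SPNCRNA.1622, the non-coding RNA beside zrt1. Among genes near chromosome ends or in the chromosome I run, it was 2.62 for ght7, 2.71 for SPBPB10D8.02c, 0.98 for SPBPB10D8.01, 1.56 for cmt2, 0.95 for aes1, 1.22 for SPBPB2B2.06c, 0.64 for hsp3104, 0.44 for SPAC11D3.11c, -1.01 for dak2 and -3.75 for SPAC186.02c. The galactose genes had -4.43 for gal1, -3.27 for gal7, -3.15 for gal10 and -4.61 for gal1-antisense-1. The remaining values were 1.48 for cta3, 0.37 for gdh2, -0.49 for SPAC17G6.03, -0.83 for SPNCRNA.841, -4.25 for SPNCRNA.359, 0.83 for rct1-antisense-1 and -0.96 for mug126-antisense-1.

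The genes with the strongest variation over the growth states were adh4, with log2 fold changes of strain 97 over 86 between -4.17 and 0.55, SPBPB10D8.02c (0.50 to 4.40), SPNCRNA.1622 (-3.65 to 0.41) and mug126-antisense-1 (-3.60 to 0.35).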

How the results depend on the processing

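The batch of a library, given by its replicate number, was a replicate block in the reported fit. With no replicate block, 38 genes were called between strains 97 and 86 in place of 65, 30 in place of 50 in the difference of the pairs, 4, 7, 12, 8 and 28 in V25, V36.5, T0, T4D25 and T4D36.5, and 7 in place of 32 in the variation over the states. Without replicate 1, 2 or 3 in turn the calls ranged from 16 to 49 between strains 97 and 86, from 8 to 20 between strains 93 and 92, from 18 to 32 in the difference, from 0 to 3 in both pairs, from 2 to 5 in V25, 4 to 14 in V36.5, 9 to 28 in T0, 4 to 24 in T4D25, 12 to 35 in T4D36.5 and 2 to 18 in the variation over the states. A minimum of 10 counts per library left 38, 2, 17 and 1 genes between strains 97 and 86, between strains 93 and 92, in the difference and in both pairs. Leaving out T0, T4D25 or T4D36.5 gave 39, 34 and 29 genes between strains 97 and 86 and 33, 32 and 30 in the difference. Leaving out V36.5, T0, T4D25 or T4D36.5 gave 1, 1, 0 and 1 in both pairs. The likelihood ratio test gave 77 in the difference and 6 in both pairs, as did DESeq2 in both pairs. With only the 12 libraries of a state, V36.5 had 3 calls and T4D25 had 50. The other planned settings, including 1 value per strain and replicate number (59 genes, 43 of them among the 65), stayed within 1.5 times the reported counts. The causes were not tested. The check held 816 values for 40 results, from 36 named genes, with those called in both pairs entered once for each pair. Of these values, 700 kept direction and side of the threshold, 112 lost the call and 4 changed sign. All 4 were for mis4, which was called nowhere. Its average was -0.013 to 0.031 without each replicate in turn, with -0.013 and -0.0002 without replicate 1 and replicate 3. It was -0.028 without T0 and -0.0098 without the V36.5 library of strain 86 in batch 2. In every planned setting, zrt1, zip2 and adh4 remained called. Leaving out that V36.5 library or the T4D36.5 library of strain 86 in batch 3, both settings chosen after seeing the data, gave 75 and 71 genes between strains 97 and 86 and 57 and 62 in the difference. Depth limits low transcripts most: 3 counts correspond to up to 2.56 CPM.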

Other observations

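The G1-arrest libraries, which entered no fit, came from strains numbered 82 to 85. There zrt1 ranged from 145.5 to 501.9 CPM of gene counts, zip2 from 35.1 to 52.9 CPM and adh4 from 56.5 to 91.2 CPM. The highest zrt1 values were in replicate 3 of strains 82 and 83, with 501.9 and 463.1 CPM.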
